A study of Mus musculus with 8 samples.

Results

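The collagen genes are the genes whose symbol has the form Col, a type number, the letter a and a chain number, such as Col4a3, and that gave at least 20 unique molecular identifiers (UMIs, each standing for 1 captured transcript) over the nuclei that passed quality control. Of 44 such symbols in the annotation of 32285 features, 43 met the minimum. Col9a2, with 10 UMIs, did not. The data are single-nucleus RNA-seq of whole-kidney nuclei from 8 male C57BL/6J mice, 2 in each of 4 groups. Ctrl mice carried Bmal1lox/lox, a floxed form of the core clock gene Bmal1 (Arntl). cKOt mice carried Bmal1lox/lox/Pax8-rtTA/LC-1, in which the Pax8 promoter drives a doxycycline-dependent activator of Cre in renal tubule cells, so endothelium, stroma, podocytes and immune cells are outside the intended deletion. Both genotypes drank doxycycline at 2 mg/ml with 20 mg/ml sucrose for 2 weeks from 8 weeks of age, and kidneys were taken at 14 weeks, at ZT4 (4 h after lights on, the rest phase) or ZT16 (4 h after lights off, the active phase). Each library is 1 mouse, and the questions are which cells carry which collagen genes and which of these genes differ with the tubular clock or with the time of day.

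The libraries held 82784 barcodes, of which 81391 nuclei passed quality control (8758 to 10975 per library, with 36548873 to 54500820 UMIs and a median of 3003.5 to 4830 UMIs per nucleus). Any pair of libraries shared 18 to 42 barcodes. Clustering without the collagen genes gave 35 classes holding 79679 nuclei, of which 32 had at least 10 nuclei in every library and enter the values by class. A class name below means nuclei like that type by its markers: PCT and PST are the convoluted and straight proximal tubule, PCT/PST lies between them, thinDL and thinAL are the thin descending and ascending limbs, TAL the thick ascending limb, MD the macula densa, DCT the distal convoluted tubule, CNT the connecting tubule, CCD and MCD the cortical and medullary collecting duct, aIC and bIC the alpha- and beta-intercalated cells, PEC the parietal epithelium of the glomerulus, UT the urothelium, EC endothelium, and SMC/JGC smooth muscle with juxtaglomerular cells. Stromal classes that no marker list separated carry their leading gene (Kcnd3, Smoc2, Adamtsl1, Eln, Scara5 and Vcan stroma). Arntl was counted per gene and its 3′ tags need not lie in the deleted part, so its level (33.1 to 160 CPM, that is UMIs per 1000000 protein-coding UMIs, in the Ctrl and 203 to 294 CPM in the cKOt libraries) does not check the labels.

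Collagens are trimers of chains wound into a triple helix, which requires a glycine in each triplet of residues. Fibrillar chains (types I, II, III, V, XI, XXIV, XXVII) form long helices that pack into fibrils, unbroken in the major types and with short breaks in types XXIV and XXVII, whereas type IV chains have a helix broken by interruptions and join into the sheet-like network of basement membranes. In the glomerular basement membrane the mature network is built of the Col4a3, Col4a4 and Col4a5 chains, whose loss causes Alport syndrome, and the widespread network is built of Col4a1 and Col4a2. The other families link, decorate or anchor these structures, or sit in the cell membrane.

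The difference in design between the chains can be read in their coding sequences (reference transcripts on GRCm39). The stretches below cover 30 codons each and show the chains that the results turn on beside Col1a1, a typical fibrillar chain. Glycine codons are in capitals.
Col1a1, codons 168 to 197: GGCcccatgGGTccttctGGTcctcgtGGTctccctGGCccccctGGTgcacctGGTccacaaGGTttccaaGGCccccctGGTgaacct
Col27a1, codons 673 to 702: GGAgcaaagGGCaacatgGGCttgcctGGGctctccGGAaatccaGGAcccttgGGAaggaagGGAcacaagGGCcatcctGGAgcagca
Col4a1, codons 1329 to 1358: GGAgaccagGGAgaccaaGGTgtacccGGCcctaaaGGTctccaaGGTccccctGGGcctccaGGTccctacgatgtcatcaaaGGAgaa
Col4a3, codons 136 to 165: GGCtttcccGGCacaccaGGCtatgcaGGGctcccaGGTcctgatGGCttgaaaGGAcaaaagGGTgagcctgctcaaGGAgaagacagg
Col4a4, codons 934 to 963: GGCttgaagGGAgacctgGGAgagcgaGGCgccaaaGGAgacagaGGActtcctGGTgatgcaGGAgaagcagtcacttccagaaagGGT
Col6a6, codons 1391 to 1420: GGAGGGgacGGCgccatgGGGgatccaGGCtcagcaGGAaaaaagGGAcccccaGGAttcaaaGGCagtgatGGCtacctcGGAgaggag
Col8a1, codons 352 to 381: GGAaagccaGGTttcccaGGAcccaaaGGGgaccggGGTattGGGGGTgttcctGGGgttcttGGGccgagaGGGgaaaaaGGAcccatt
Col1a1 and Col27a1 show a glycine codon in each triplet throughout the stretch, while each of the type IV stretches shows a place where the spacing breaks. The type IV stretches were placed at the end of the longest unbroken run and the others at its start. The contrast between the printed stretches follows from this placement, so they are illustrations only. Over the whole transcript the longest unbroken run of glycine triplets was 338 in Col1a1 and 217 in Col27a1 (216 in Col24a1), against 40 in Col4a1, 39 in Col4a3 and 45 in Col4a4, in which the triplets were split over 22, 24 and 27 runs of at least 5. The longest run was 42 in Col6a6 and 61 in Col8a1.

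The 43 genes gave 1272249 UMIs, 3172 to 4468 CPM of protein-coding UMIs in the 8 libraries. The 6 type IV genes held 81.3% of these UMIs and the 11 fibrillar genes 7.35%. The 2 multiplexins (types XV and XVIII, hybrids of collagen and proteoglycan) held 3.39%, the 8 fibril-associated genes 2.84%, the 6 type VI genes 2.07%, the 3 hexagonal-network genes (types VIII and X) 1.54%, the 4 transmembrane genes 0.661%, the anchoring-fibril gene Col7a1 0.118%, and Col26a1 with Col28a1 0.696%. Per kilobase of gene span, the scale on which genes are compared here, the whole-kidney level was 11.2 CPM in Col4a3 and 7.27 in Col4a4, then 1.59 in Col4a5, 1.54 in Col4a1, 1.24 in Col4a2 and 1.22 in Col27a1. Col18a1 (0.949), Col1a2 (0.870), Col5a2 (0.534) and Col3a1 (0.504) followed, and Col22a1 was lowest with 0.000576. The type IV genes took the first 5 places, also by UMIs without scaling. The lower order depends on the scaling by span, which suits 3′ tags only where introns were counted: Col4a6 stood at rank 17 per kilobase and 8 by UMIs, Col1a2 at 8 and 14, and Col3a1 at 10 and 18.

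Levels by cell class are given as CPM of the protein-coding UMIs of that class in a library, mean ± SD over the 8 libraries, as a description across genotypes and times without a test. Col4a3 was highest in the thinAL (5140 ± 977), followed by the thinDL (3403 ± 604) and podocytes (3027 ± 184), and the thinAL was above the thinDL in 8 of 8 libraries. The thinAL was above podocytes, the cell in which these chains are best known, in each library (lowest thinAL 4353, highest podocyte value 3377), whereas the thinDL values (2747 to 4399) overlapped those of podocytes. Col4a4 was also highest in the thinAL (2973 ± 431), with Vcan stroma (2109 ± 352) and podocytes (1909 ± 194) next, whose ranges over libraries overlapped. Col4a5 was highest in the thinAL (1880 ± 178), Vcan stroma (1556 ± 299) and thinDL (1008 ± 124), and the order of the first pair held in 5 of 8 libraries only.

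Col4a6, the chain that pairs with Col4a5 outside the glomerular basement membrane, was highest in Vcan stroma (839 ± 250), the thinAL (799 ± 147) and the UT (596 ± 66.1), the first 2 of which overlapped. The classic pair was placed elsewhere. Col4a1 was highest in Kcnd3 stroma (1127 ± 522), Eln stroma (849 ± 525) and Smoc2 stroma (762 ± 176), and Col4a2 in Kcnd3 stroma (933 ± 327), Smoc2 stroma (724 ± 107) and Eln stroma (640 ± 202). Podocytes gave 28.3 ± 17.9 for Col4a1 and 34.3 ± 22.2 for Col4a2, and capillary EC gave 581 ± 103 and 409 ± 90.1. PEC, which border the urinary space opposite the podocytes, held Col4a1 (630 ± 86.2), Col4a2 (503 ± 111), Col4a5 (701 ± 41.4) and Col4a6 (261 ± 44.2) together with Col4a3 at 444 ± 130.

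**Figure D1:**
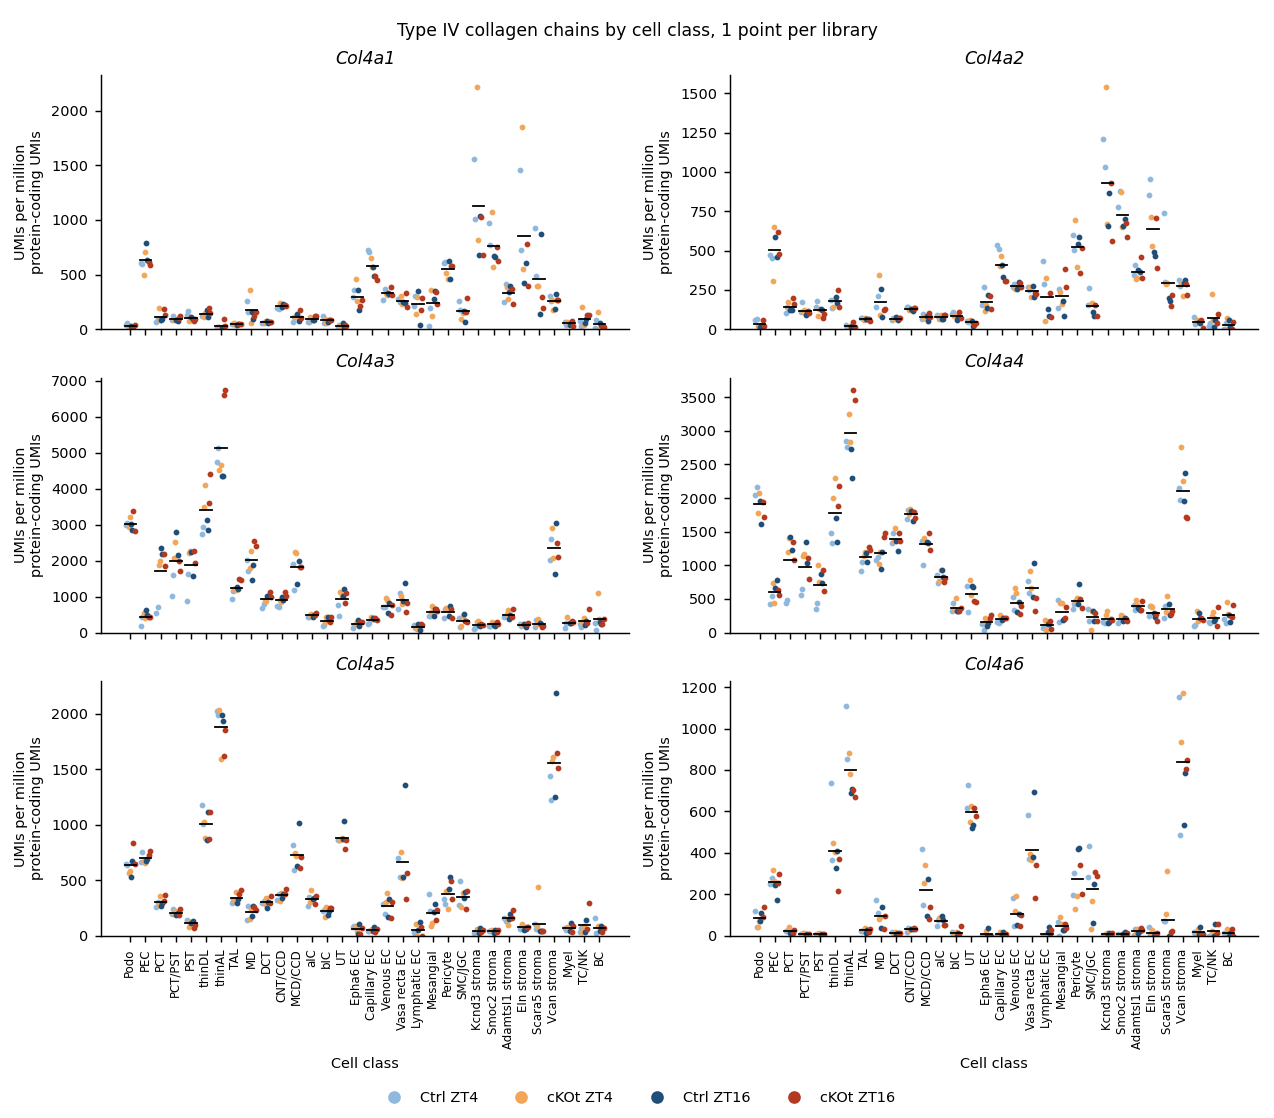
Levels of the 6 type IV genes (CPM of protein-coding UMIs, linear axes that differ between panels) in 32 cell classes; each point is 1 library, coloured by group, and the bar is the mean of 8 libraries. Col4a3 and Col4a4 peak in the thinAL, with podocytes, thinDL and Vcan stroma next, while Col4a1 and Col4a2 peak in Kcnd3 stroma and stand near 30 in podocytes.

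Of the glomerular EC only 47 nuclei were found, so their values are pooled over libraries with an exact Poisson interval that covers counting error only. They gave 204 CPM for Col4a1 (95% interval 123 to 319), 215 for Col4a2 (131 to 332), 118 for Col15a1 (59.0 to 211) and 258 for Col4a3 (165 to 384), and no UMI of Col13a1, which allows up to 39.6 at the upper end of the interval. Mesangial nuclei, which hold the capillary loops together, gave 237 ± 117 for Col4a1 and 570 ± 111 for Col4a3. Beside these Col4a3 values, the Col4a3 level of immune nuclei was 10.5% to 20.3% of the proximal tubule level in the Ctrl libraries, where the 14 proximal tubule markers, summed, stood at 13.0% to 15.6% of theirs. The part of RNA from other nuclei in the lower values was not tested.

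The balance between partner chains changed along the nephron. In UMI ratios within a library (not scaled for length, and so compared between classes only), Col4a4 over Col4a3 was 0.382 ± 0.0701 in the PST, 0.492 ± 0.0540 in PCT/PST and 0.654 ± 0.0880 in the PCT. It was 0.631 ± 0.0520 in podocytes, 0.521 ± 0.0428 in the thinDL and 0.585 ± 0.0684 in the thinAL, then 0.916 ± 0.0608 in the TAL and 0.594 ± 0.0501 in the MD. It was 1.55 ± 0.281 in the DCT, 1.98 ± 0.316 in CNT/CCD, 1.73 ± 0.219 in aIC and 1.26 ± 0.506 in bIC, but only 0.744 ± 0.133 in MCD/CCD. The lowest library of CNT/CCD (1.58) was above the highest of the PST (0.475), TAL (1.00) and podocytes (0.715). Col4a5 over Col4a6 ranged from 1.49 ± 0.235 in the UT, 1.60 ± 0.278 in vasa recta EC and 2.40 ± 0.370 in the thinAL to 13.5 ± 3.38 in the TAL, 25.4 ± 8.76 in the DCT and 37.1 ± 26.8 in PCT/PST. Col4a2 over Col4a1 moved less, from 0.627 ± 0.0892 in CNT/CCD and 0.702 ± 0.0651 in capillary EC to 1.42 ± 0.263 in the TAL among classes with at least 1000 UMIs of each gene.

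Type IV genes are known to lie in head-to-head pairs. In the RefSeq gene table (GRCm38.p6, used for neighbourhood only) Col4a1 and Col4a2 on chromosome 8 overlapped by 85 bases on opposite strands, Col4a4 and Col4a3 on chromosome 1 by 114 bases, and Col4a6 and Col4a5 on chromosome X lay 1274 bases apart on opposite strands. Over the 32 classes the log2 levels of Col4a1 and Col4a2 had a Pearson r of 0.97, those of Col4a3 and Col4a4 an r of 0.91 and those of Col4a5 and Col4a6 an r of 0.86. Chains that are not neighbours also reached high values: Col4a4 with Col4a5 gave 0.82 and Col4a3 with Col4a5 gave 0.76. Col4a6 gave 0.52 with Col4a4 and 0.50 with Col4a3. Col4a1 and Col4a2 against each of the other type IV chains gave −0.52 (Col4a3 against Col4a1) to −0.12 (Col4a2 against Col4a6). These are descriptions over classes that share libraries, without a p-value, and the effect of the overlapping ends on the UMIs was not measured.

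The major fibrillar chains peaked in Scara5 stroma, a class of 150 nuclei with fibroblast markers. Col3a1 reached 1320 ± 426 there, against 408 ± 104 in Eln stroma, Col1a2 reached 966 ± 187 against 595 ± 58.0, and Col1a1 reached 302 ± 93.6 against 163 ± 49.1, each in 8 of 8 libraries. Col5a1, a chain that starts fibrils, was highest in the same class (276 ± 88.8), then in Kcnd3 stroma (217 ± 26.8) and Eln stroma (187 ± 30.4). Col5a3 was highest by the mean in pericytes (73.5 ± 40.7), above Eln stroma (43.2 ± 23.9) in 5 of 8 libraries only. The ratio of Col1a2 to Col1a1 UMIs was 3.41 ± 0.965 in Scara5 stroma and 5.90 ± 0.736 in Smoc2 stroma.

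The other fibrillar genes lay outside this pattern. Col5a2 was high in Scara5 stroma (518 ± 132) and, without its partner chain Col5a1 and without Col3a1, in the TAL (331 ± 218) and DCT (239 ± 99.7). Its level in the TAL was 723, 165, 566, 147, 105, 279, 272 and 392 CPM in Ctrl ZT4 mice 1 and 2, cKOt ZT4 mice 1 and 2, Ctrl ZT16 mice 1 and 2 and cKOt ZT16 mice 1 and 2, and in the same order its level in the DCT was 402, 155, 302, 144, 101, 248, 263 and 296. The mice that were high in the TAL were high in the DCT, and the spread between mice of the same group was as wide as that between groups. Col27a1, a fibrillar chain known from cartilage, was highest by the mean in the PCT (366 ± 192), CNT/CCD (283 ± 88.3) and PCT/PST (221 ± 142), but the PCT was above CNT/CCD in 5 of 8 libraries only: in all 4 Ctrl mice and in 1 of the 4 cKOt mice. Col24a1 was highest in the bIC (105 ± 55.3), with each other class at or under 10.9. Col11a1 (331 UMIs in all), Col11a2 (350) and Col2a1 (25), chains best known from cartilage, were too sparse for values by class.

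Among type VI genes, whose chains form beaded filaments around cells, Col6a1 (89.0 ± 38.2) and Col6a2 (117 ± 52.8) were highest by the mean in Scara5 stroma and Col6a3 in Kcnd3 stroma (338 ± 76.5) and Eln stroma (317 ± 85.8). Scara5 stroma was above pericytes (77.8 ± 22.2) in 4 of 8 libraries only for Col6a1, and above Eln stroma (81.5 ± 52.8) in 6 for Col6a2. Col6a6 differed from them: by the mean over both genotypes it was highest in PCT/PST (174 ± 183) and the PST (172 ± 133). The wide spread between the genotypes is given below. Scara5 stroma was next (79.2 ± 57.2), and the order of these classes in the Ctrl mice alone is not given here. Of the 16353 Col6a6 UMIs, 58.3% came from PCT/PST. The 4 highest correlations between fibrillar and type VI chains over the 32 classes joined Col6a3 with Col5a1 (r = 0.96), Col3a1 with Col6a1 (0.93), Col3a1 with Col6a2 (0.92) and Col1a2 with Col6a2 (0.92). In all, 15 of the 465 pairs among the 31 genes with at least 1000 UMIs reached 0.9. Col6a4 (143 UMIs) and Col6a5 (118 UMIs) were sparse.

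The fibril-associated genes were divided between stroma and other cells. Col12a1 was highest in mesangial nuclei (1177 ± 250), above Scara5 stroma (343 ± 200) and vasa recta EC (303 ± 113) in 8 of 8 libraries. Col14a1 had like levels in Scara5 stroma (953 ± 506) and Kcnd3 stroma (952 ± 172), and Col16a1 in Adamtsl1 stroma (65.5 ± 12.8) and Vcan stroma (62.2 ± 25.7). Col19a1 was highest in SMC/JGC (502 ± 176) and next in PCT/PST (169 ± 43.2), again in 8 of 8 libraries. Col20a1 stayed low throughout (25.7 ± 19.5 in the MD, a class with 28.8% doublet calls). Col22a1, known from tissue junctions, was found with 12.4 ± 7.46 in the PEC and at most 1.53 elsewhere, on 63 UMIs in all, and Col9a1 (26) and Col9a3 (204) were sparse.

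Of the network and membrane collagens, Col8a1 was highest by the mean in Eln stroma (565 ± 251), Scara5 stroma (549 ± 303) and mesangial nuclei (358 ± 112), and among tubule classes in the PCT. Eln stroma was above Scara5 stroma for Col8a1 in 3 of 8 libraries only. Col18a1, the source of endostatin, was highest in the PEC (765 ± 168), SMC/JGC (470 ± 158) and aIC (466 ± 118), and Col15a1 in Smoc2 stroma (367 ± 65.4), with capillary EC at 141 ± 24.7. Col13a1 was found in mesangial nuclei (63.3 ± 58.8) and capillary EC (51.5 ± 14.3). Col23a1 was highest in mesangial nuclei (710 ± 191) and lymphatic EC (394 ± 187). Col25a1 was highest by the mean in the bIC (137 ± 48.1), the class that also led for Col24a1, but above SMC/JGC (79.0 ± 90.2) in 5 of 8 libraries only. Col7a1 was highest in the UT (24.9 ± 13.0), Col26a1 in CNT/CCD (546 ± 88.7) and MCD/CCD (195 ± 64.5), which held 58.1% of its UMIs in the first of them. Col8a2 (122 UMIs), Col10a1 (362), Col17a1 (174) and Col28a1 (189) were sparse. Some members overlap another gene on the opposite strand: Col10a1 (Nt5dc1, 7105 bases), Col27a1 (Gm52743, 8902), Col4a1 (Gm32709, 24712), Col4a2 (Gm46030, 18344) and Col13a1 (Gm40674, 29058). Col4a3 overlaps C430014B12Rik by 30533 bases, with the strand not given in the annotation used here. The effect of these overlaps on the UMIs was not measured.

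**Figure D2:**
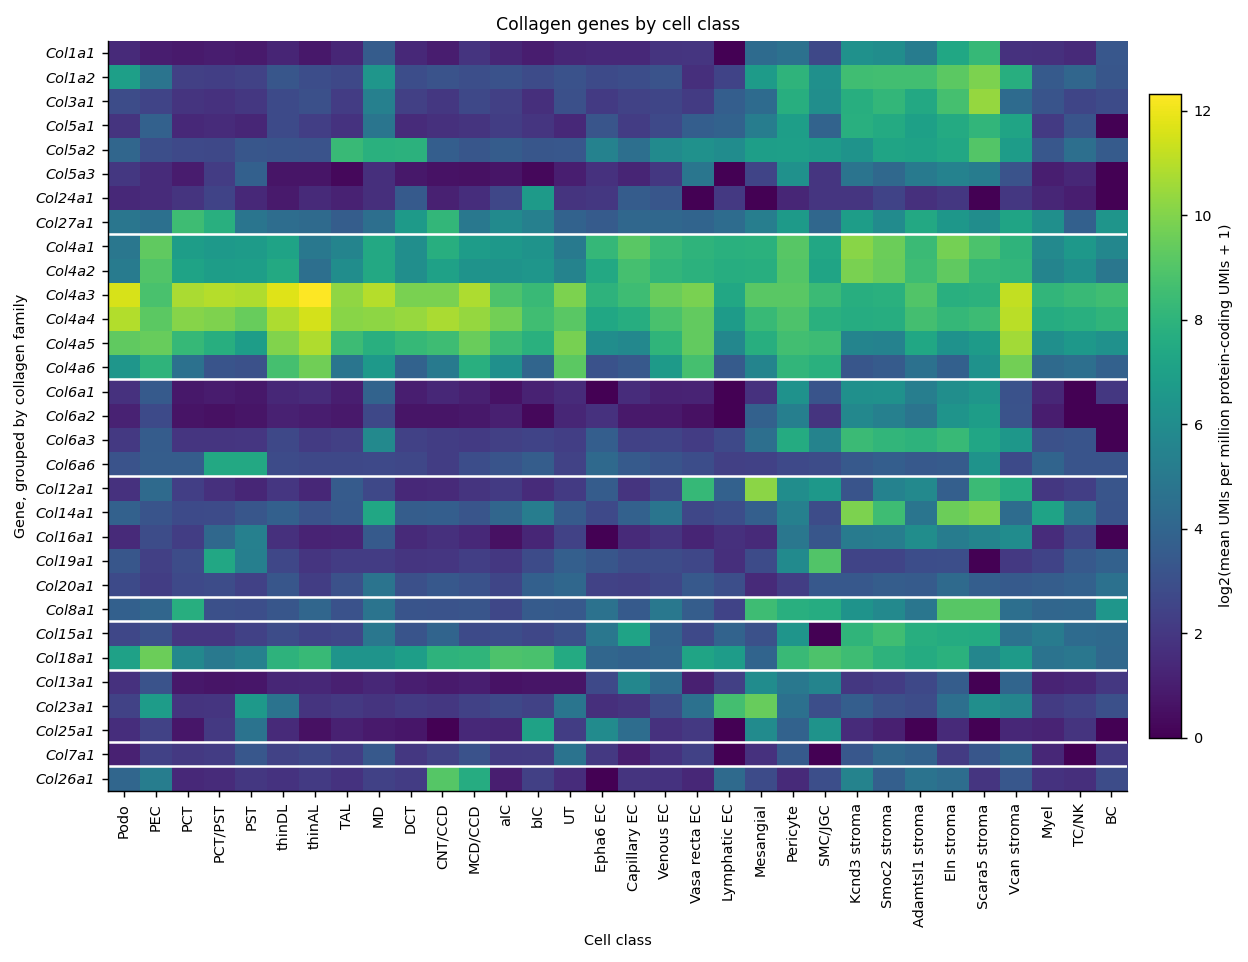
Mean level of the 31 collagen genes with at least 1000 UMIs (rows, white lines between families) in 32 cell classes (columns), as log2 of the mean CPM plus 1 over 8 libraries. Most fibrillar and type VI rows are bright in the stromal columns, other than Col24a1, Col27a1 and Col6a6, whose levels are higher in tubule classes. Col4a3 and Col4a4 are bright in podocytes and along the whole nephron. The brightest cell of the row is that of mesangial nuclei for Col12a1, SMC/JGC for Col19a1 and CNT/CCD for Col26a1.

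With the classes joined into 9 broad ones, the stroma led for 19 of the 43 genes, the urothelium for 7, the parietal epithelium for 4, the distal tubule and collecting duct for 4, the proximal tubule for 3 (Col6a6, Col19a1, Col27a1), the endothelium for 2 (Col13a1, Col28a1), podocytes for 2 (Col4a3, Col4a4), the loop of Henle for 1 (Col5a2) and immune cells for 1 (Col9a3). By UMIs per 1000 nuclei in place of CPM, the stroma led for 14 genes, and the parietal epithelium and the proximal tubule for 7 each. The leads in CPM are by the mean, and many varied between libraries. The stroma led in 5 of 8 libraries for Col4a1 and for Col4a2, with the parietal epithelium ahead in the other 3, and in 6 for Col8a1, and the loop of Henle led in 6 for Col5a2. The named class led in 0 of 8 libraries for Col10a1, 1 for Col9a1, 2 for Col2a1 and Col6a4, and 3 for Col11a1 and Col25a1. The sum of all collagen genes was 11274 ± 1289 CPM in the thinAL, 8698 ± 837 in Vcan stroma, 7733 ± 1138 in Scara5 stroma, 7324 ± 919 in the thinDL and 6137 ± 415 in podocytes, and 1055 ± 197 in myeloid nuclei. By number rather than density, 46.4% of collagen UMIs came from the proximal tubule (32.2% of nuclei), 20.6% from the loop of Henle, 14.2% from the distal tubule and collecting duct, and 9.38% from the stroma (11.1% of nuclei).

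The first comparison asks which collagen genes differed between genotypes. Sums of UMIs over all nuclei of a library were fitted with edgeR's quasi-likelihood test, with Benjamini-Hochberg adjustment over all protein-coding genes tested and a threshold of 0.05. In such sums fewer cells of a type and less RNA per cell cannot be told apart. Over both times, 2 of 41 collagen genes tested were called, against 0.948% of all 16351 genes: Col27a1 fell and Col6a6 rose in cKOt. The median log2 fold change of the 41 genes was −0.20 and 13 of them were higher in cKOt, against a median of −0.00 over all genes. At ZT4 alone the median of the collagen genes was −0.32 with 13 higher, and at ZT16 alone it was −0.00 with 20 higher. In sums per cell group over both times, it was −0.02 in the stroma (15 of 35 tested higher), 0.01 in the endothelium and −0.00 in the proximal tubule. It was −0.05 in the loop of Henle, 0.01 in the distal tubule and collecting duct, −0.02 in podocytes and 0.38 in immune nuclei. Col2a1 and Col9a1 were too low to be tested in any of the whole-kidney comparisons.

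The values per mouse are CPM normalised by TMM, the scaling of the fit, as are all values per mouse below unless a class such as the PCT is named. Col27a1 was at 139 and 153 in Ctrl and 98.1 and 101 in cKOt mice at ZT4, and 241 and 238 in Ctrl and 110 and 98.2 in cKOt mice at ZT16. All 4 Ctrl values were above all 4 cKOt values, and the 2 Ctrl values at ZT16 stood apart from the rest. The log2 fold change was −0.88 ± 0.08 (SE, adjusted p = 0.00163, edgeR) over both times and −1.21 ± 0.11 (adjusted p = 0.00579) at ZT16. The second call was lost without Ctrl mouse 2 or either cKOt mouse of ZT16 (adjusted p up to 0.0783).

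Col6a6 stood at 6.42 and 20.3 in Ctrl and 56.5 and 112 in cKOt mice at ZT4, and at 8.24 and 6.81 in Ctrl and 86.2 and 115 in cKOt mice at ZT16. The genotypes did not overlap, although the second Ctrl mouse at ZT4 was higher than the other 3. The log2 fold change was 3.19 ± 0.36 (adjusted p = 0.00540, edgeR), a 9.13-fold difference, and 3.74 ± 0.52 (adjusted p = 0.0387) at ZT16 alone, a call lost without any 1 of the 4 ZT16 mice (adjusted p up to 0.272). Col8a1, the next gene, stood at 31.6 and 35.8 in Ctrl and 203 and 70.5 in cKOt mice at ZT4 and at 25.8 and 29.4 in Ctrl and 59.2 and 49.1 in cKOt mice at ZT16. The genotypes did not overlap here either, with the first cKOt mouse at ZT4 far above the others, and the log2 fold change of 1.49 ± 0.28 missed the threshold (adjusted p = 0.0515, edgeR), which it passed with DESeq2, without the filter on low counts, with all genes in 1 fit and without either cKOt mouse of ZT4 (log2 fold change 1.02 to 1.78 over the alternatives).

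**Figure D3:**
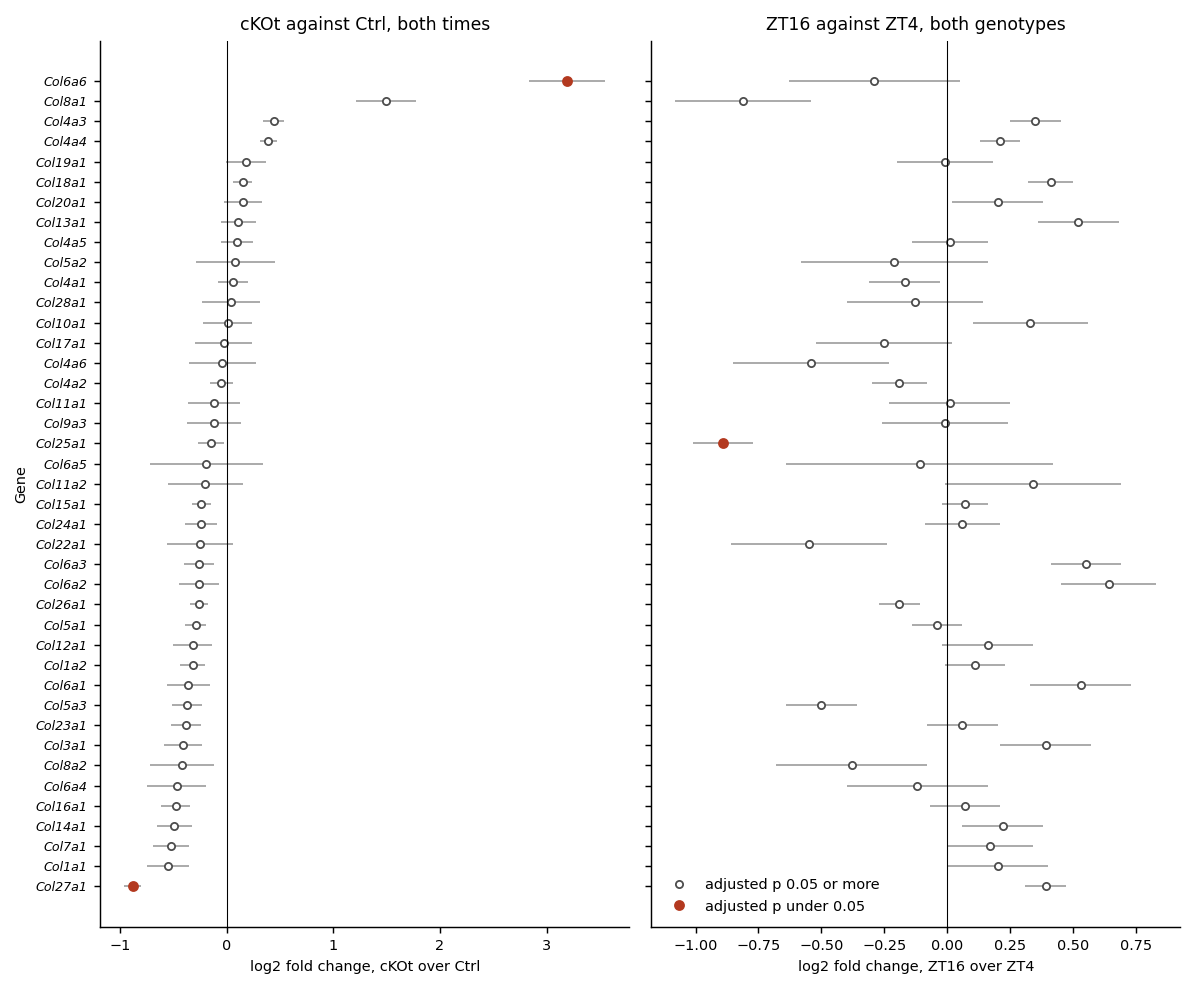
Log2 fold changes (points) with their SE (lines) of the 41 collagen genes tested in whole-kidney sums, for genotype over both times (left) and time over both genotypes (right); filled points passed an adjusted p of 0.05. Col6a6 at 3.19 and Col27a1 at −0.88 are the ends of the left panel, and Col25a1 at −0.89 is the only filled point on the right.

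At each time alone, 2 of 41 genes were called: Col4a3 and Col4a4 at ZT4 (against 0.446% of all genes) and Col27a1 and Col6a6 at ZT16 (against 0.174%). At ZT4 an unadjusted p under 0.05 (edgeR) was reached by 16 of the 41 and by 1432 of all 16145 genes. DESeq2 called 8 of the 41 and 349 of all 16145 genes there, and edgeR with the replicate number as a block called 0 of the 41. The fit with the block was not counted over all genes. Col4a3 stood at 871 and 1080 in Ctrl and 1740 and 1770 in cKOt mice at ZT4, and at 1670, 1630, 1710 and 1670 in the 4 mice at ZT16. The 2 Ctrl mice at ZT4 were thus low and the other 6 were alike. Col4a4 showed the same order, with 711 and 717 against 1190 and 1200 at ZT4 and 1090, 1010, 1110 and 1040 at ZT16. The log2 fold changes at ZT4 were 0.85 ± 0.14 for Col4a3 (adjusted p = 0.0458, edgeR) and 0.74 ± 0.12 for Col4a4 (adjusted p = 0.0397), while those at ZT16 were 0.04 ± 0.14 and 0.03 ± 0.11. Both calls were lost whichever of the 8 mice was left out, with adjusted p up to 0.207 and 0.284. Ctrl mouse 1 at ZT4 also had the lowest depth of the series (30119827 protein-coding UMIs, against 35498142 to 45245488 in the other 7). Ctrl mouse 2 at ZT4, low for both genes as well, had 41553094, and the part of depth was not tested.

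The third gene by p at ZT4 was Col14a1, at 62.9 and 70.1 in Ctrl and 35.3 and 22.2 in cKOt mice (log2 fold change −1.21 ± 0.22, adjusted p = 0.0727, edgeR, called by DESeq2, without the filter on low counts and without cKOt mouse 1), and at ZT16 it was Col7a1 (−0.77 ± 0.23, adjusted p = 0.521). Col1a1, Col1a2 and Col3a1 did not pass the edgeR test at ZT4, and DESeq2 called Col1a1 alone of them. Col1a1 gave 6.20 and 9.45 in Ctrl against 3.76 and 3.20 in cKOt mice, Col1a2 gave 31.3 and 41.1 against 27.2 and 21.7, and Col3a1 gave 16.4 and 25.8 against 15.5 and 9.94. The other stromal chains Col5a1 and Col5a3 gave log2 fold changes of −0.60 ± 0.14 (adjusted p = 0.163, edgeR) and −0.56 ± 0.19 (adjusted p = 0.364). At ZT16 Col1a1 gave 7.09 and 4.57 in Ctrl and 6.78 and 5.44 in cKOt mice, Col1a2 35.7 and 29.9 against 30.3 and 32.5, and Col3a1 22.6 and 21.6 against 21.9 and 20.0, which overlap. The share of stromal nuclei moved with the values at ZT4, being 10.9% and 12.7% in the Ctrl and 10.3% and 9.98% in the cKOt libraries. Its part in the result was not tested.

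Within the proximal tubule 5 of 36 genes tested were called for genotype over both times, against 1.69% of all genes there. Col27a1 stood at 234, 281, 425 and 471 normalised CPM in the Ctrl mice (ZT4 first) and 144, 160, 138 and 141 in the cKOt mice, a log2 fold change of −1.22 ± 0.11 (adjusted p = 0.000784, edgeR). Col6a6 stood at 11.8, 43.9, 16.2 and 14.5 in Ctrl and 101, 208, 146 and 234 in cKOt mice (3.05 ± 0.41, adjusted p = 0.00700), and Col8a1 at 45.8, 51.5, 33.9 and 40.7 against 344, 121, 81.1 and 79.2 (1.68 ± 0.28, adjusted p = 0.0208). None of these genotype groups overlapped. Col16a1 fell from 16.0, 20.2, 19.2 and 19.4 to 11.9, 11.3, 12.7 and 10.6 (−0.69 ± 0.13, adjusted p = 0.0318), and Col23a1 from 17.6, 26.1, 27.8 and 29.4 to 12.4, 16.1, 15.2 and 14.5 (−0.78 ± 0.15, adjusted p = 0.0410). Leaving out 1 mouse ended the Col8a1 call for any but the cKOt mice of ZT4 (adjusted p up to 0.0949), that of Col16a1 for any but Ctrl mouse 1 of ZT4 (up to 0.158) and that of Col23a1 for any but Ctrl mouse 1 and cKOt mouse 2 of ZT4 (up to 0.181, edgeR).

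The 5 genes differed in where along the proximal tubule they were found. Col27a1 was highest in the PCT, at 325 and 402 in the Ctrl and 213 and 232 in the cKOt mice at ZT4 and 623 and 689 against 235 and 209 at ZT16, and lowest in the PST, where the Ctrl mice gave 22.5 to 58.6. Col6a6 was found in PCT/PST, with 15.6, 40.0, 20.4 and 7.98 in the Ctrl and 182, 436, 257 and 430 in the cKOt mice, and in the PST, but stayed at or under 27.4 in the PCT. Col8a1 was the reverse, with 95.2 to 124 in the PCT of Ctrl mice at ZT4 and 713 and 230 in that of cKOt mice, and at most 24.6 in the other 2 classes. Col23a1 (102 to 143 in Ctrl and 68.5 to 86.2 in cKOt mice) and Col16a1 (45.9 to 52.7 in Ctrl and 23.6 to 33.5 in cKOt mice) were PST genes. The PST held 11.3% to 15.6% of proximal tubule nuclei per library, with 11.7% to 15.6% in Ctrl and 11.3% to 15.1% in cKOt mice.

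Col4a3 and Col4a4 were also low in the Ctrl mice at ZT4 within the proximal tubule. In the PCT Col4a3 gave 534 and 713 in those 2 mice and 1839 to 2353 in the other 6, and Col4a4 gave 446 and 480 against 1085 to 1416. In podocytes Col4a3 gave 3000 and 3034 in the same 2 mice and 2820 to 3377 in the other 6, so the difference seen in the PCT was not seen there. The genotype contrast over both times did not call either gene in the proximal tubule with edgeR (Col4a4 0.53 ± 0.13, adjusted p = 0.0989, and Col4a3 0.43 ± 0.18, adjusted p = 0.425), while DESeq2 and the fit without the filter on low counts called Col4a4.

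**Figure D4:**
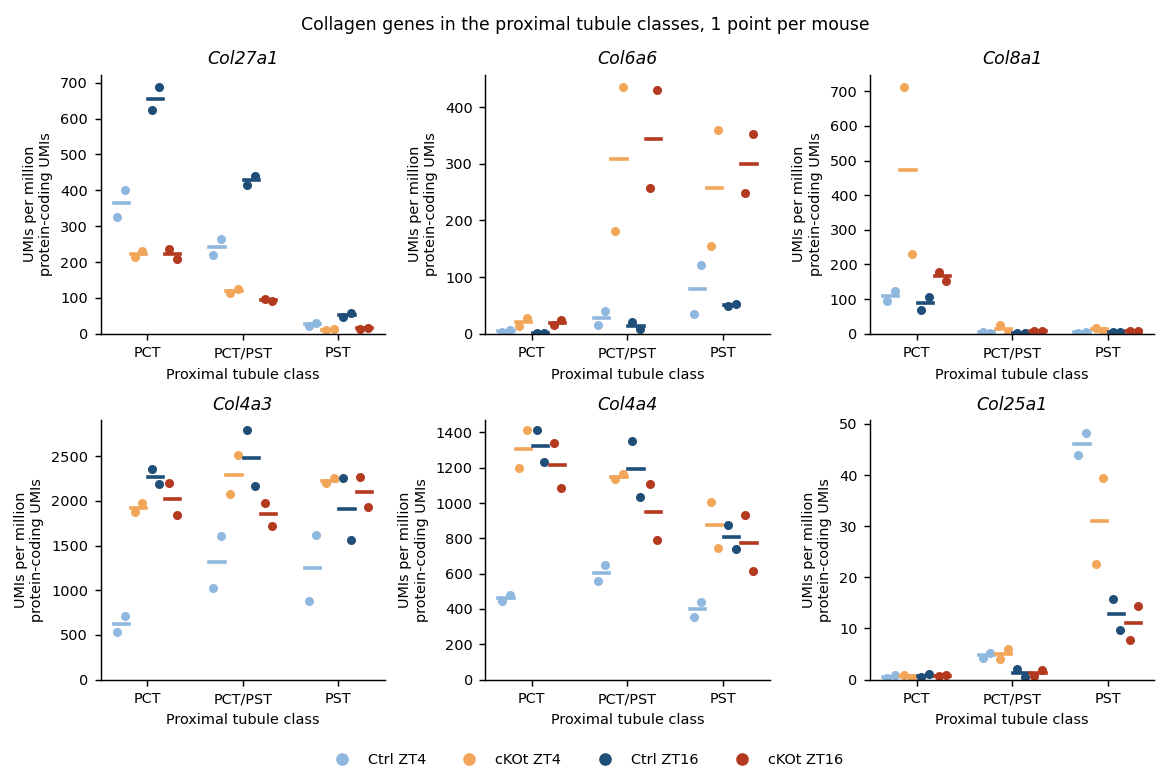
Levels of Col27a1, Col6a6, Col8a1, Col4a3, Col4a4 and Col25a1 (CPM of protein-coding UMIs, linear axes that differ between panels) in the PCT, PCT/PST and PST classes; each point is 1 mouse and each bar the mean of the 2 mice of a group. Col27a1 and Col8a1 are PCT genes and Col6a6 and Col25a1 are found toward the PST, and the group means of Col4a3 and Col4a4 are lowest in the Ctrl ZT4 mice, although their single values overlap for Col4a3 in the PST.

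Col27a1 and Col6a6 promoters are shown because these genes moved in opposite directions with the deletion of Bmal1, a factor that is known to bind the E-box CACGTG and related letters. The 250 bases before the transcript start that the RefSeq promoter table uses are given 5′ to 3′ on the gene's strand (GRCm38.p6), with the motifs found in capitals. The gene span in the RefSeq gene table begins further upstream, so the whole Col27a1 stretch and most of the Col6a6 stretch lie inside it, and other starts of these genes were not examined.
Col27a1, chr4:63215162-63215411, plus strand: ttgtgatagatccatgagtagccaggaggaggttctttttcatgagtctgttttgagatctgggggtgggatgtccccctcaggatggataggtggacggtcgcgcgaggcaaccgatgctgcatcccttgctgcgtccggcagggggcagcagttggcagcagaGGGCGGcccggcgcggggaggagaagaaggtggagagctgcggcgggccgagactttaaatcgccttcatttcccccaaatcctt
Col6a6, chr9:105828086-105828335, minus strand: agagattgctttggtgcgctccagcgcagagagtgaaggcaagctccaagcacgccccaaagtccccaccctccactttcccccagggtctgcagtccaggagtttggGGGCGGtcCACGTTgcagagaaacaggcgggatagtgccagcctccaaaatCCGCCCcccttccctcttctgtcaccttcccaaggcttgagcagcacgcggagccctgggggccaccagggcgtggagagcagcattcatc
Searched on both strands were the E-box CACGTG, its relative CACGTT, the GC box GGGCGG (which the Col6a6 window also holds on the other strand), the CCAAT box and the TATA box, as TATAAA. The searched letters overlap each other in no printed window. CACGTT was found in the Col6a6 window, 134 bases before the start, and GGGCGG in both windows. The counts that follow cover the table's whole windows, which run on past the start: Col4a1, for example, holds GGGCGG only 9 bases after it. Of 34 collagen genes with a window (37 windows), none held CACGTG and 2 held CACGTT (Col4a4 and Col6a6), against 7.15% and 4.68% of all 32851 windows. GGGCGG was in 59.5% of the collagen and 35.7% of all windows, CCAAT in 35.1% and 37.4%, and TATAAA in 13.5% and 13.6%. A match is a description of letters and no match says nothing about the factor.

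Col6a6 was called for genotype in 4 more cell groups. In the endothelium it stood at 2.00, 2.15, 1.36 and 2.12 in the Ctrl and 14.5, 15.6, 14.6 and 22.8 in the cKOt mice (log2 fold change 3.12 ± 0.28, adjusted p = 9.24e-05, edgeR), as 1 of 31 genes tested there against 0.214% of all genes. In the loop of Henle it stood at 0.929 to 1.71 in Ctrl and 5.23 to 13.5 in cKOt mice (2.92 ± 0.35, adjusted p = 0.00235), as 1 of 32 against 0.466%. In the distal tubule and collecting duct it stood at 0.389 to 1.66 in Ctrl and 7.34 to 14.3 in cKOt mice (3.46 ± 0.37, adjusted p = 0.00172), as 1 of 33 against 0.452%, and in the stroma at 3.39 to 6.00 against 13.3 to 19.6 (1.88 ± 0.25, adjusted p = 0.0117), as 1 of 35 against 0.115%. These levels are small beside the proximal tubule: in the cKOt libraries Col6a6 stood at 7.59% to 14.4% of its proximal tubule level in the endothelium, where the 14 proximal tubule markers, summed, stood at 11.6% to 13.7% of theirs. The same pair of ranges was 5.26% to 5.92% and 8.10% to 9.59% in the loop, 6.11% to 7.34% and 9.40% to 9.91% in the distal tubule, and 6.88% to 13.0% and 10.3% to 13.0% in the stroma. In the cKOt libraries the Col6a6 range thus lay below that of the markers in the loop and distal tubule and overlapped it in the endothelium and stroma, whereas in the Ctrl libraries the stroma gave 13.7% to 27.5% for Col6a6 and 8.89% to 10.8% for the markers. Within the stroma, Scara5 stroma stood at 79.2 ± 57.2 CPM over the 8 libraries. The part of RNA from other nuclei in these results was not tested. The stromal call was lost without any 1 of the 4 ZT16 mice (adjusted p up to 0.120, edgeR).

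No collagen gene was called for genotype in podocytes (0 of 11 tested, against 0.0693% of all genes, with 1 at an unadjusted p under 0.05 and 0 by DESeq2) or in immune nuclei (0 of 17, against 0.103%, with 4 and 0, but 3 without the filter on low counts and 2 without doublet calls). The fits without the filter or without doublet calls were not counted over all genes. In the main fits 385 of all 7216 genes in podocytes and 510 of all 10644 in immune nuclei had such an unadjusted p. The smallest adjusted p there were 0.549 for Col27a1 in podocytes and 0.0608 for Col6a6 in immune nuclei (edgeR). In podocytes Col4a3 gave a log2 fold change of 0.03 ± 0.11 and Col4a4 of −0.06 ± 0.12.

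The second comparison asks which collagen genes differed with the time of day. Over both genotypes 1 of 41 genes was called in whole-kidney sums, against 0.544% of all genes. Col25a1, a transmembrane collagen, stood at 9.18 and 8.44 in Ctrl and 8.71 and 9.25 in cKOt mice at ZT4, and at 5.19 and 5.61 in Ctrl and 3.89 and 4.65 in cKOt mice at ZT16. The times did not overlap, and the log2 fold change of ZT16 over ZT4 was −0.89 ± 0.12 (adjusted p = 0.0293, edgeR), but the call was lost without any 1 mouse other than cKOt mouse 1 of ZT4 (adjusted p up to 0.120). The next genes were Col27a1 (0.39 ± 0.08, adjusted p = 0.0782) and Col18a1 (0.41 ± 0.09, adjusted p = 0.0929). Col18a1 stood at 90.6, 85.5, 101 and 95.5 at ZT4 and 129, 106, 136 and 124 at ZT16, with no overlap.

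Col25a1 was also the gene called for time in the proximal tubule (1 of 36, against 0.540% of all genes), at 8.06, 12.0, 5.50 and 8.70 at ZT4 and 3.71, 2.54, 1.98 and 3.43 at ZT16 (−1.54 ± 0.26, adjusted p = 0.0496, edgeR), a call lost without any 1 mouse other than cKOt mouse 1 of ZT4 (adjusted p up to 0.237). It was found there in the PST, at 22.6 to 48.3 at ZT4 and 7.79 to 15.8 at ZT16. In the distal tubule and collecting duct Col27a1 rose (1 of 33, against 0.495%), from 87.0, 93.3, 69.9 and 72.9 at ZT4 to 169, 135, 142 and 112 at ZT16 (0.79 ± 0.11, adjusted p = 0.0174, edgeR), a call lost without Ctrl mouse 1 or cKOt mouse 2 of ZT4 or cKOt mouse 1 of ZT16 (adjusted p up to 0.103). In CNT/CCD it stood at 204, 214, 223 and 194 at ZT4 and at 406, 391, 355 and 279 at ZT16. In the proximal tubule the cKOt mice gave 144 and 160 at ZT4 and 138 and 141 at ZT16. The time change within each genotype and its difference between these cell groups were not tested.

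In the endothelium 2 of 31 genes were called for time, against 1.79% of all genes. Col13a1 rose from 22.4, 30, 26.2 and 27.1 at ZT4 to 49.8, 37.9, 51.2 and 50.8 at ZT16 (0.83 ± 0.14, adjusted p = 0.00857, edgeR), both in capillary EC (34.3 to 42.1 against 50.1 to 70.5) and in venous EC (3.17 to 13.0 against 24.6 to 35.0). Col4a2 fell from 434, 435, 356 and 367 to 340, 315, 302 and 287 (−0.35 ± 0.08, adjusted p = 0.0340), and its capillary EC values were 405 to 536 at ZT4 and 307 to 410 at ZT16. Its partner Col4a1 gave 550, 583, 528 and 444 at ZT4 and 467, 419, 450 and 400 at ZT16 (−0.27 ± 0.09, adjusted p = 0.149). The Col13a1 call was lost without cKOt mouse 1 of ZT16 (adjusted p = 0.0542, edgeR) and the Col4a2 call without any 1 mouse other than cKOt mouse 1 of ZT4 (adjusted p up to 0.159). No gene was called for time in the stroma (0 of 35, against 0.680%, with 11 at an unadjusted p under 0.05, 0 by DESeq2 and 10 without the filter on low counts, among them Col4a1, Col4a2 and Col6a3), podocytes (0 of 11, against 0.194%, with 2 and 0), the loop of Henle (0 of 32, against 0.875%, with 4 and 0, and 2 without the filter, Col4a6 and Col5a2) or immune nuclei (0 of 17, against 0.0752%, with 1 and 0), all with edgeR. Among all genes, such an unadjusted p was reached by 1403 of 13081 in the stroma and 501 of 7216 in podocytes. It was reached by 1867 of 13947 in the loop and 673 of 10644 in immune nuclei. The fits without the filter were not counted over all genes, so no share stands beside their counts.

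Within a genotype no collagen gene passed the edgeR threshold in whole-kidney sums. In Ctrl mice, 0 of 41 were called against 0.142% of all genes, with 12 at an unadjusted p under 0.05, 3 by DESeq2 and 2 without the filter on low counts, and the smallest p belonged to Col27a1 (0.72 ± 0.11, adjusted p = 0.0776), Col4a3 (0.76 ± 0.14, adjusted p = 0.110) and Col4a4 (0.56 ± 0.12, adjusted p = 0.142). In cKOt mice, 0 of 41 were called against 0.00% of all genes, with 12 and 4, and the smallest p belonged to Col25a1 (−1.07 ± 0.18, adjusted p = 0.145), Col6a3 (0.83 ± 0.19, adjusted p = 0.270) and Col14a1 (0.93 ± 0.22, adjusted p = 0.273). The test of the difference between the genotypes' time changes called 0 of 41 against 0.0183% of all genes, with 9 at an unadjusted p under 0.05 and 3 by DESeq2. Its smallest p belonged to Col15a1 (0.94 ± 0.19, adjusted p = 0.458), Col14a1 (1.44 ± 0.31, adjusted p = 0.597) and Col4a4 (−0.70 ± 0.16, adjusted p = 0.676). Col15a1 stood at 31.4 and 37.3 in Ctrl and 20.1 and 22.0 in cKOt mice at ZT4, and at 24.7 and 27.2 in Ctrl and 30.4 and 30.7 in cKOt mice at ZT16. Among all genes, an unadjusted p under 0.05 (edgeR) was reached by 1609 of 16165 for time in Ctrl and 1337 of 16069 in cKOt mice. For the difference between the time changes it was reached by 711 of 16351. DESeq2 called 233, 164 and 48 of all genes in the same order. These comparisons share control samples, so their values are given side by side only.

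The remaining type IV genes did not separate the groups in whole-kidney sums. Col4a1 ranged from 140 to 218 normalised CPM, Col4a2 from 147 to 216 and Col4a5 from 276 to 406 over the 8 mice. Col4a6 ranged most, with 101 and 53.1 in Ctrl and 90.8 and 103 in cKOt mice at ZT4 and 47.0 and 90.3 in Ctrl and 31.8 and 71.1 in cKOt mice at ZT16. The thinDL, thinAL, MCD/CCD and Vcan stroma, the classes with much of it, made up 11.0% and 8.80%, 13.7% and 13.6%, 11.6% and 16.4%, and 6.57% and 12.4% of the nuclei of those libraries. The lowest Col4a6 value was in the library with the lowest share. Not all libraries followed this order: a share of 11.0% went with 101, 11.6% with 47.0 and the highest share, 16.4%, with 90.3. The part of this share in the result was not tested.

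The genes that make, cross-link, bind and degrade collagen were taken as 75 genes in 6 groups. Over both times 1 of 74 tested was called for genotype by edgeR, near the 0.948% of all genes. An unadjusted p under 0.05 (edgeR) was reached by 17 of the 74 and by 1640 of all 16351 genes. DESeq2 called 6 of the 74 and 430 of all 16351 genes. The gene called by edgeR was Plod2, a lysyl hydroxylase that prepares chains for cross-linking. It stood at 48.8, 67.8, 59.2 and 70.2 normalised CPM in the Ctrl and 91.2, 85.9, 124 and 109 in the cKOt mice (0.72 ± 0.12, adjusted p = 0.0313, edgeR), without overlap. No gene of these groups was called once any 1 mouse other than Ctrl mouse 2 or cKOt mouse 2 of ZT4 was left out. In the group of chain modification and folding (19 genes, median log2 fold change −0.01) P4ha1, a prolyl hydroxylase, was next (0.62 ± 0.28, adjusted p = 0.521, edgeR). The median was −0.58 for the proteoglycans, −0.35 for degradation, −0.26 for the receptors, −0.21 for cleavage and cross-linking and −0.07 for the basement membrane partners, beside the lower share of stromal nuclei in the cKOt libraries at ZT4 given above, whose part was not tested. At ZT4 and ZT16 alone the medians were −0.78 and −0.49 for the proteoglycans, −0.49 and −0.14 for degradation, −0.38 and −0.06 for the receptors and −0.29 and −0.00 for cleavage and cross-linking. The smallest p of the other groups were Loxl4 (1.18 ± 0.32) and Pcolce (−0.40 ± 0.12) among 14 genes of propeptide cleavage and cross-linking, Dcn (−0.72 ± 0.16) and Bgn (−0.52 ± 0.12) among 6 small leucine-rich proteoglycans, Nid2 (0.57 ± 0.15) and Lamb3 (−0.32 ± 0.08) among 15 basement membrane partners, Mrc2 (−0.29 ± 0.09) and Itga11 (−0.48 ± 0.16) among 10 collagen receptors, and Timp2 (−0.38 ± 0.10) and Mmp3 (−1.73 ± 0.92) among 11 genes of degradation, none of which passed (smallest adjusted p = 0.0990, Dcn). Mmp3 was near the floor, with 0 to 7 UMIs per library. For time over both genotypes 0 of 74 were called, against 0.544% of all genes, and the smallest adjusted p was 0.0919 for Ogn (0.75 ± 0.16, edgeR). An unadjusted p under 0.05 (edgeR) was reached by 13 of the 74 and by 2243 of all 16351 genes. DESeq2 called 4 of the 74 and 520 of all 16351 genes.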

How the data were processed

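Nuclei of a central kidney cross-section with cortex and both medullas were isolated, sorted on DAPI and sequenced with the 10x 3′ chemistry. The authors deposited UMI counts per gene and barcode made with Cell Ranger 7.1.0 (bcl2fastq 2.20 and Seurat 5 are listed too), so the deposited counts are not normalized. The reference is mm10 in the methods and GRCm39 in the labels. For intron counting the setting is not given in the sources here. Kept nuclei had 500 genes and 800 UMIs or more, with mitochondrial UMIs not above 2%. They were clustered with scanpy 1.11.5 on 2000 variable genes without collagen genes (1000 components, Leiden resolution 2.2, with stroma and endothelium again at 1.0), and named where at least 3 markers were 2 times above other nuclei. Doublets (4367 calls) were left out only of the classes made by clustering stroma and endothelium again, so not of lymphatic EC (6.09% calls). Protein-coding sums per library were tested with edgeR 4.0.16 (TMM, quasi-likelihood, 1 model of 4 groups) where both replicates of a group had at least 5 counts. DESeq2 1.42.0, no filter, all genes, the replicate block, no doublets, no QC and leaving out each mouse were alternatives. On simulated sums for genotype over both times, edgeR called 80.0% of 100 genes changed 2-fold and 43.0% of 100 changed 1.5-fold, with 11 false calls among 16115 genes. Replicates differed beyond counting noise (chi-square per degree of freedom 36.6 to 64.6), and intervals cover counting error only. The collagen genes, the pathway groups and the named genes (those called, the 3 with the smallest p per whole-kidney comparison, those with at least 1000 UMIs, and a list of type I, III, IV, XV and XVIII chains) were chosen with earlier results of these data known. Coding stretches were read from GENCODE transcripts.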

Additional observations from a re-analysis of the deposited data

Results flagged for a closer look

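In groups of 4 libraries of a genotype, 36 sets of values were examined for a library far from the others, and 4 were found. Chance alone gives about 1 in 20 for independent sets. These sets share mice and genes and each joins both times, so the number found cannot be compared with that rate. Col6a6 in the second Ctrl mouse at ZT4 stood at 20.3 normalised CPM in whole-kidney sums, against 6.42 to 8.24 in the other Ctrl mice, and at 43.9 in the proximal tubule, against 11.8 to 16.2. Col6a6 in the second cKOt mouse at ZT16 stood at 22.8 in the endothelium, against 14.5 to 15.6 in the other cKOt mice. Col8a1 in the first cKOt mouse at ZT4 stood at 344 in the proximal tubule, against 79.2 to 121 in the other cKOt mice.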

How the results depend on the processing

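Of 374 combinations of 34 named fold changes with an alternative, 284 kept their side of the threshold and direction, 75 were no longer called, 15 were newly called and 0 reversed. Col27a1 and Col6a6 for genotype over both times (whole kidney and proximal tubule) and Col6a6 in endothelium, loop of Henle and distal tubule were called in all 11 of their alternatives, and in those run for counts only. Where counts of collagen genes called moved, the cause was not tested. With DESeq2 they were 8 (against 2) for genotype at ZT4, 5 (against 2) over both times, 3 (against 0) for time in Ctrl, 4 (against 0) in cKOt, 5 (against 1) over both genotypes, 3 (against 0) for the interaction, 4 (against 1) for time in the proximal tubule, 2 (against 1) for genotype in the loop and 2 (against 1) for time in the distal tubule, while DESeq2 called 349 of all 16145 genes at ZT4 (edgeR 72), 171 of 16094 at ZT16 (28), 430 of 16351 over both times (155), 164 of 16069 for time in cKOt (0) 520 of 16351 for time over both genotypes (89), 233 of 16165 for time in Ctrl, 48 of 16351 for the interaction, 519 of 14632 for genotype and 386 for time in the proximal tubule, 140 of 13947 for genotype in the loop and 162 of 13931 for time in the distal tubule. For genotype in the proximal tubule the count of 5 became 7 with DESeq2, 7 without the filter and 6 without doublet calls. Without the count filter they were 5 for genotype at ZT4, 4 over both times, 2 for time in Ctrl, 10 (against 0) for time in stroma, 4 (against 2) in endothelium, 3 in proximal tubule, 2 (against 0) in the loop and 2 in distal tubule, and for genotype 5 in the loop and 3 (against 0) in immune nuclei, which gave 2 without doublet calls. Of the alternatives, only DESeq2 was counted over all genes, so no share over all genes stands beside the counts of the others. This covers the fits without the filter, without doublet calls, with the block, with all genes in 1 fit and with 1 mouse left out. With the replicate number as a block the counts of collagen genes called were 0 for genotype at ZT4 and 0 for time in the proximal tubule. Same-numbered mice shared only a number (correlation of deviations −0.26 to 0.42 over 6 pairs), and the block also ended the Col16a1 call for genotype in the proximal tubule (4 genes against 5) and no other call of a collagen gene. Leaving out 1 mouse gave, in whole-kidney sums, 0 to 1 genes for genotype at ZT4, 0 to 2 at ZT16, 2 to 3 over both times and 0 to 1 for time over both genotypes. By class it gave 0 to 1 for genotype in stroma, 2 to 4 in proximal tubule, 1 to 2 in the loop and 0 to 2 in immune nuclei, and for time 0 to 2 in endothelium, 0 to 1 in proximal tubule and 0 to 1 in distal tubule. Pathway genes called were 7 for genotype at ZT4, 1 at ZT16, 4 for time in cKOt, 6 for genotype over both times and 4 for time over both genotypes with DESeq2, 1 for the last without the filter, and, with 1 mouse left out, 0 to 1 for genotype at ZT4, for genotype over both times and for time over both genotypes. These pathway alternatives were chosen after seeing the data. Per 1000 nuclei in place of CPM, the stroma led for 14 genes (against 19), the distal tubule for 3 (against 4), the endothelium for 1, the parietal epithelium for 7 and the proximal tubule for 7, and Col4a1, Col4a2 and Col8a1 were among those that left the stroma. With all genes in 1 fit, 3 genes (against 2) were called for genotype over both times.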
